A study of Homo sapiens with 6 samples.

Results

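IL24 and 6 further genes of the interleukin-20 cytokine system were examined in U87-2M1 glioma cells that carried a decoy for the microRNA miR-10b or a control decoy. The 7 genes, out of 19775 with a probe set on the array, were taken by gene symbol: the cytokines IL24, IL19 and IL20 and the receptor chains IL20RA, IL20RB, IL22RA1 and IL10RB. They are covered by 9 probe sets, and where a gene has several the one with the highest mean signal over the 6 arrays stands for it. The genes were chosen by a measured value, the signal of IL24, which was already known to be higher with the miR-10b decoy on these same arrays. The differences of the 7 genes between the groups are therefore given as a description, with standard errors and no p-value.

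U87-2M1 is an invasive subline of the U87 human glioma line, recovered from an experimental lung metastasis assay and propagated in culture. The 3 miR-10b decoy arrays and the 3 control decoy arrays come from passage 4 cells kept in hypoxia. All of them had received a baculovirus, an insect virus used here to deliver genes, with either the miR-10b decoy or the control decoy, so cells without a vector were not analysed here. All cells derive from 1 line, and the labels do not state separate cultures for the replicates. The p-values below therefore reflect how much these 3 and 3 samples vary, and part of that variation may be technical. Neither miR-10b itself nor its binding by the decoy was measured here.

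The products of IL19, IL20 and IL24 are secreted cytokines of the interleukin-10 family. They share a receptor made of the IL20RA and IL20RB chains, and those of IL20 and IL24 can also use IL22RA1 together with IL20RB. IL10RB is the accessory chain with which other family members, among them interleukin-10 and interleukin-22, signal. Bound receptors activate the kinases JAK1 and TYK2 and the transcription factor STAT3. In skin these cytokines drive keratinocyte responses, and IL24, first isolated from melanoma cells as a differentiation-associated gene, is best known in tumour cells for growth arrest and death when supplied in excess.

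The 3 cytokine genes lie side by side on chromosome 1, and their promoter windows are shown because the differences reported below vary between these adjoining genes. Each window runs from 250 bases before to 50 bases after a transcription start listed by RefSeq (GRCh38.p14), with all 3 on the plus strand, written 5′ to 3′. RefSeq lists a further start for IL19 and for IL20, and the first of each is printed. Capitals mark matches, on either strand, to an AP-1 site (TGANTCA), a C/EBP site (TTGCNNAA), a STAT site (TTCNNNGAA) or a TATA box (TATAAA or TATATA).
IL24 (chr1:206897193-206897492): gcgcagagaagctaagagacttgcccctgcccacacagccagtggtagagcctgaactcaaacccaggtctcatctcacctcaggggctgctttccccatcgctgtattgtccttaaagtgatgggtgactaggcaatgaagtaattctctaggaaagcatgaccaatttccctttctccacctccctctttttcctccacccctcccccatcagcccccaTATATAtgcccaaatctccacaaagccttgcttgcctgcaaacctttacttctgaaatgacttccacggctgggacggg
IL19 (chr1:206770523-206770822): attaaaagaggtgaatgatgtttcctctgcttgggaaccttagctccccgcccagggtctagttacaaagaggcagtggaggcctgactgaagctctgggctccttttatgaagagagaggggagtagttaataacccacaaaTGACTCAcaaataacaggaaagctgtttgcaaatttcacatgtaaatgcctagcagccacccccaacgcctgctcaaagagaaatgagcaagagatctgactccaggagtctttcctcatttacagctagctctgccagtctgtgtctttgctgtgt
IL20 (chr1:206863315-206863614): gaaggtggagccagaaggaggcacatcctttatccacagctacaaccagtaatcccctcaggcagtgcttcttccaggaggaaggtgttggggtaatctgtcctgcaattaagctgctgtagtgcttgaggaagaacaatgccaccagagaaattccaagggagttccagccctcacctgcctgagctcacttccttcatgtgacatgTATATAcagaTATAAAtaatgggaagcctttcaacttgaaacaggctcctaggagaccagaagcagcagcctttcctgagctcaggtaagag

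The IL24 window held a TATATA run that began at position -29 from the start, and no other match. The first IL20 window held TATATA at -42 and TATAAA at -32. The first IL19 window held an AP-1 match at -107, and the second, not printed, a STAT match at -217. Of 35116 promoter windows of the same length, 13.67% held a TATA box match, 7.709% an AP-1 match, 10.46% a C/EBP match and 7.657% a STAT match. A match is a run of letters and does not show that a factor binds there, and a window without one says nothing about the factor.

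IL24 was the member that stood apart between the groups. Its only probe set, 206569_at, gave signals of 904, 1029 and 1130 on the miR-10b decoy arrays, against 151, 154 and 203 on the control decoy arrays. Every miR-10b decoy array lay above every control decoy array, and control replicate 3, the highest control, was also the brightest array as a whole. The means were 1021 ± 113 with the miR-10b decoy and 169 ± 29.3 with the control decoy (SD, n = 3 each), a ratio of 6.04. On the log2 scale after quantile normalization the difference was 2.65 (SE 0.10), a 6.30-fold higher level. Of 13842 genes tested, 3 had a larger positive difference. The signal comes from whole cultures, so more cells with IL24 RNA and more IL24 RNA per cell cannot be told apart.

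The other cytokines of the trio were dim. IL20 (probe set 224071_at) had signals of 17.8, 23.6 and 33.4 with the miR-10b decoy, against 20.5, 15.4 and 34.4 with the control decoy. The groups overlapped, and the log2 difference was 0.25 (SE 0.30). IL19 (220745_at) had 6.82, 16.1 and 19.2 with the miR-10b decoy, against 1.80, 6.49 and 7.92 with the control decoy. Its mean of 9.72 over all arrays lay under 15.6, the signal below which genes were left out of the comparison, so IL19 was not in the fit. The deposited IL19 signals overlapped, the quantile-normalized values did not, and its log2 difference of 0.87 went to 1.48 with a smaller offset on the log scale and to 0.35 with a larger one.

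Among the receptor chains, IL20RA was hardly measurable. Its brightest probe set (222828_at) gave 1.31, 3.54 and 1.12 with the miR-10b decoy, against 4.83, 2.71 and 5.06 with the control decoy. The other 2 probe sets were also under 15.6 on every array, the highest value being 14.2 on control replicate 3. No difference is given for IL20RA, since no array of either group reached that level, whereas IL19 reached it on 2 miR-10b decoy arrays. IL22RA1 (220056_at), the alternative partner of IL20RB, gave 23.8, 26.5 and 23.6 with the miR-10b decoy, against 45.3, 20.5 and 13.7 with the control decoy. The 3 miR-10b decoy arrays lay inside the range of the controls. The IL22RA1 log2 difference was 0.20 (SE 0.36), and it was -0.18 without control replicate 3 and 0.60 without control replicate 1.

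IL20RB and IL10RB were measured above the filter level on all arrays. IL20RB (228575_at), the chain common to both receptors of IL24, gave 78.1, 51.8 and 72.7 with the miR-10b decoy, against 66.0, 47.0 and 71.9 with the control decoy. The groups overlapped, with a log2 difference of 0.25 (SE 0.19). IL10RB (209575_at) gave 594, 758 and 701 with the miR-10b decoy, against 673, 713 and 804 with the control decoy. The groups overlapped here too, and the log2 difference of -0.020 (SE 0.08) turned to 0.077 when arrays were centred on their medians and to 0.069 without miR-10b decoy replicate 1.

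**Figure D1:**
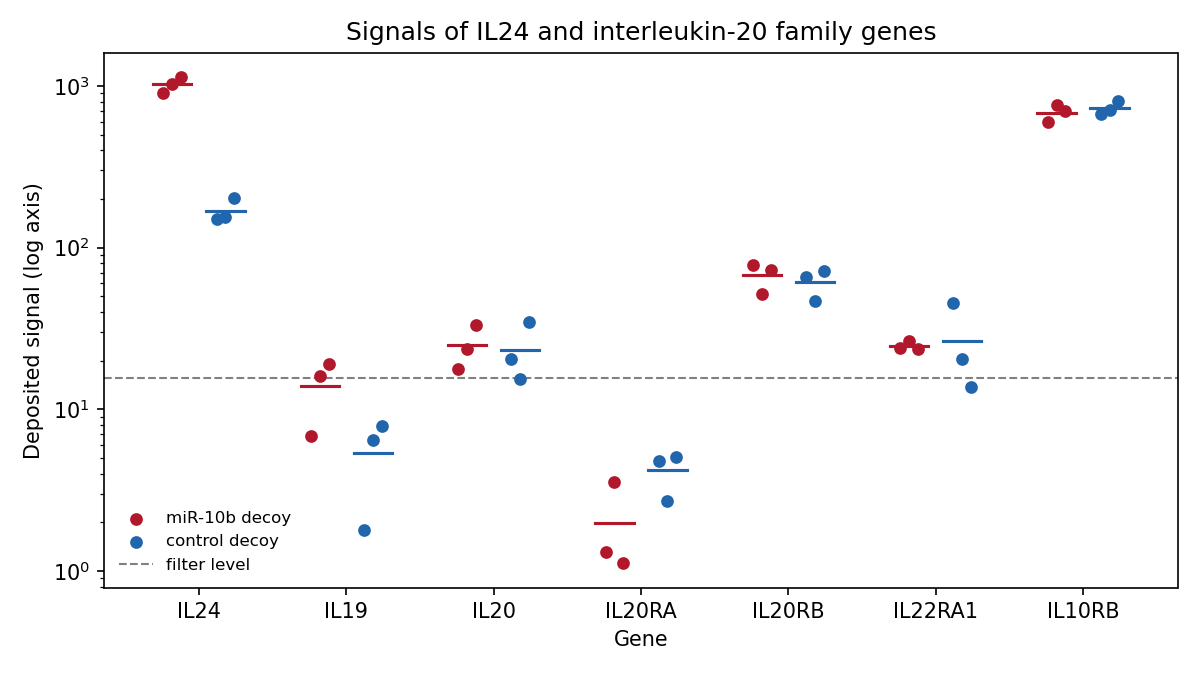
Deposited signal (log axis) of the probe set that stands for each of the 7 genes. Points are arrays, 3 with the miR-10b decoy (left, red) and 3 with the control decoy (right, blue), bars are group means and the dashed line is the filter level of 15.6. Heights of different genes cannot be compared because each probe set has its own response. IL24 separates by group, 904 to 1130 against 151 to 203.

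Of the 7 members, 5 passed the filter on mean signal, and the threshold applied to all genes counted 1 of these 5, IL24, as higher and 0 as lower. Over all 13842 genes 16.6% were called higher and 17.3% lower, 33.9% in all. On the normalized scale the arrays of the groups lay apart for 2 of the 7 members, IL24 and IL19, and for 46.4% of all genes tested. The 46.4% leaves out genes under the filter level, of which IL19 is 1, so the 2 shares have unlike bases. The members' counts come from the comparison that chose IL24, so they are no test of it, and nothing is read from them.

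Array brightness was similar except on 1 control array. The mean signal after trimming lay between 154 and 162 on the miR-10b decoy arrays and between 158 and 192 on the control arrays, with control replicate 3 the brightest. The median log2 difference over all genes was -0.02 after quantile normalization and -0.14 as deposited. The split of calls moved with the scaling: 2293 genes were higher and 2399 lower after quantile normalization, 1094 and 2561 as deposited, and 2860 and 1747 when arrays were centred on their medians. The actin 3′/5′ signal ratio, a measure of RNA integrity, was 8.54 ± 1.77 with the miR-10b decoy and 5.73 ± 0.47 with the control decoy (SD, n = 3 each, two-sided exact permutation p = 0.1, which is the lowest value that 3 against 3 can give), and its part in the results was not tested. The same ratio of GAPDH was 0.943 ± 0.00747 with the miR-10b decoy and 0.945 ± 0.0192 with the control decoy (SD, n = 3 each).

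Markers were checked for cell types that make or respond to these cytokines. Of 9 glioma markers 7 were above the filter level, led by the intermediate filament vimentin (VIM) with 9412 in miR-10b decoy cells and 10463 in controls. The stem cell filament nestin (NES) was called lower. OLIG2, a transcription factor of the oligodendrocyte lineage, gave 17.9, 18.9 and 26.8 with the miR-10b decoy, all above 15.6, against 0.822, 4.72 and 10.3 in controls, all under it. Its groups lay apart, but its mean fell under the filter and it was not tested. The glial filament GFAP was near the bottom of the scale, at 2.05 with the miR-10b decoy and 2.89 in controls, so the cells carry the glioma label without this defining marker. The summed glioma markers ranged from 26124 to 26316 with the miR-10b decoy and from 27169 to 32315 in controls. All levels and sums in this paragraph are deposited signals, before normalization, and control replicate 3 was the brightest array. After quantile normalization the glioma markers VIM, CD44, TNC and CHI3L1 did not pass, with log2 differences from -0.015 to 0.0086. Of 9 leukocyte markers 7 had a probe set with a single gene symbol and 2 were above the filter level, with summed signals of 59.9 to 74.8 with the miR-10b decoy and 71.4 to 137 in controls. PTPRC, which encodes the leukocyte antigen CD45, had 6.57 with the miR-10b decoy and 5.68 in controls. Of 7 keratinocyte markers 6 were measured and 3 were above the level, summing to 56.9 to 82.9 with the miR-10b decoy and 63.1 to 160 in controls. None of the measured markers was listed at exactly 0.

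The gene lists below were chosen with earlier results of these data known, so their counts are a description. The other genes of the IL-10 cytokine family and of the class II receptors, to which the interleukin-20 receptor chains belong, were counted in the same way. Of 14, 13 had a probe set, 7 were tested, 1 was higher and 3 were lower, with a median log2 difference of -0.18 against -0.02 over all genes, of which 16.6% were called higher and 17.3% lower. IFNGR2, a chain of the interferon-gamma receptor, gave 475, 544 and 362 with the miR-10b decoy, against 769, 847 and 926 with the control decoy. Its groups were well apart, and it fell by 0.80 on the log2 scale (SE 0.11, adjusted p = 2.04e-04). Its partner chain IFNGR1 rose by 0.35 (SE 0.08, adjusted p = 0.00445), a call that ended with the signals as deposited and with the mean of all probe sets. Tissue factor (F3), the coagulation receptor that shares the class II fold, fell by 0.26 (SE 0.06, adjusted p = 0.00427), a call that ended without the intensity trend. The interferon receptor chain IFNAR2 was lower (-0.35, SE 0.10, adjusted p = 0.0156), but 2 of its 3 probe sets had the opposite sign and its call ended after centring and with the mean of all probe sets. It also ended when miR-10b decoy replicate 2 was left out (adjusted p = 0.0626) or control replicate 2 (adjusted p = 0.0569) or 3 (adjusted p = 0.0594). The type I interferon receptor chain IFNAR1 (-0.12, SE 0.09), the interleukin-10 receptor chain IL10RA (-0.18, SE 0.26) and the interferon lambda gene IFNL2 (-0.0040, SE 0.32) did not pass. IL10, IL22, IL26, IFNL1, IFNLR1 and the soluble receptor IL22RA2 lay under the filter level.

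Downstream of the receptors, the SOCS genes encode feedback inhibitors of cytokine signalling. SOCS3, a STAT3-induced inhibitor of cytokine receptors, gave 1082, 1164 and 1221 with the miR-10b decoy, against 622, 586 and 803 with the control decoy. The groups did not overlap, and SOCS3 rose by 0.87 (SE 0.07, adjusted p = 6.03e-06), although 1 of its 3 probe sets above the filter level went the other way and their mean with the dim one gave 0.39. SOCS7 rose by 0.59 (SE 0.08), with all 3 of its probe sets positive. SOCS6 rose by 0.50 (SE 0.08), with 1 of 3 probe sets at -0.080 and a mean over all of them of 0.27. SOCS1 rose by 0.63 (SE 0.12) on its brightest probe set, with 1 of 2 above the filter level against it, and it did not pass when all its probe sets were averaged (0.19, adjusted p = 0.448). STAT3 itself gave 515, 528 and 485 with the miR-10b decoy, against 664, 693 and 833 with the control decoy. STAT3 fell by 0.43 (SE 0.07, adjusted p = 4.06e-04) on that probe set, whereas 2 of its 4 probe sets had the opposite sign, up to 0.65, and the mean of all of them did not pass.

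Across the 27 JAK, STAT and feedback genes, 25 were tested, 6 were higher, 5 lower and 14 did not pass, with a median log2 difference of -0.00, beside 16.6% higher and 17.3% lower over all genes. The lower genes were STAT3, JAK2, SOCS2, PIAS2 and PIAS3, the PIAS proteins being nuclear modifiers of STAT activity. With the mean of all probe sets 1, PIAS3, was lower. The lower count was 3 without miR-10b decoy replicate 3 or control replicate 1 or 3, and the JAK2 and PIAS3 calls ended in each of these fits (adjusted p from 0.0578 to 0.113). JAK1 and TYK2, the kinases that pair with these receptors, had -0.035 (SE 0.059) and -0.024 (SE 0.090), did not pass, and were named after their values were seen. Of the 4 JAK1 probe sets above the filter level, 2 had the opposite sign, and the range was -0.57 to 0.52.

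Genes reported as partners or effectors of IL24 in tumour cells went both ways. Of 22, 21 were tested, 8 were higher, 6 lower and 7 did not pass (median 0.12), beside 16.6% higher and 17.3% lower over all genes. PPP1R15A (GADD34), a stress-induced subunit of the phosphatase that restarts translation, gave 687, 757 and 684 with the miR-10b decoy, against 305, 327 and 329 with the control decoy. The groups did not overlap, and it rose by 1.21 (SE 0.08, adjusted p = 1.10e-06). GADD45A, a growth arrest gene, rose by 0.63 (SE 0.06) and ATF4, the transcription factor of the integrated stress response, by 0.46 (SE 0.05), the ATF4 call ending with the signals as deposited (adjusted p = 0.081). The endoplasmic reticulum stress sensor EIF2AK3 (PERK) fell by 0.44 (SE 0.06). XBP1, a transcription factor of the unfolded protein response, was lower on its brighter probe set (-0.48, SE 0.07) and higher on the other (0.53). With the signals as deposited 4 of this list were higher and 6 lower.

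Reported regulators of IL24 transcription and mRNA stability had 6 genes higher and 0 lower among 19 tested of 22, and 13 did not pass (median 0.11), beside 16.6% higher and 17.3% lower over all genes. The higher genes were the AP-1 subunits JUN, JUND and FOSL2, the C/EBP factor CEBPB, DUSP1, a phosphatase that switches off p38 kinase, and ZFP36L2, an AU-rich element binding protein. DUSP1 gave 6118, 6376 and 6605 with the miR-10b decoy, against 3823, 3751 and 4577 with the control decoy. The groups did not overlap, and DUSP1 rose by 0.81 (SE 0.04, adjusted p = 2.81e-07), with 1 of 3 probe sets at -0.13. FOSL2 rose by 0.72 (SE 0.06), with 2 of 5 probe sets against it and 0.28 as the mean of all, and JUN by 0.61 (SE 0.05), with a positive difference on all 4 of its probe sets. CEBPB (0.22, SE 0.03) and JUND (0.23, SE 0.05) were smaller and lost their calls with the signals as deposited, where 3 of the list were higher and 1 lower. JUND did not pass when its probe sets were averaged or without the intensity trend either, and 2 of its 4 probe sets had the opposite sign, down to -0.29. ZFP36L2 (0.37, SE 0.10) lost its call there too, with the mean of all probe sets, without the intensity trend, and without control replicate 2 (adjusted p = 0.0675). The AP-1 subunit JUNB, which did not pass, was called lower without miR-10b decoy replicate 1.

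Genes reported to respond to interleukin-20 family cytokines in keratinocytes included 9 higher genes, 3 lower ones and 4 that did not pass, out of 16 tested. Their median log2 difference was 0.60, against -0.02 over all genes, of which 16.6% were called higher and 17.3% lower. This list was chosen with earlier results of these data known, so nothing is read from its counts or its median. The list has 23 genes, of which 4 (DEFB4A, KRT6A, KRT6B and KRT17) had no probe set with a single symbol. Another 3 (S100A7, S100A12 and KRT16) were under the filter level. The 4 that did not pass were S100A8, S100A9, CXCL8 and PDGFA. CXCL5, a neutrophil-attracting chemokine, gave 769, 829 and 957 with the miR-10b decoy, against 172, 216 and 207 with the control decoy. It rose by 2.16 (SE 0.11, adjusted p = 2.15e-07). LCN2, an iron-binding lipocalin, gave 153, 192 and 188 with the miR-10b decoy, against 21.3, 32.6 and 43.7 with the control decoy, and rose by 2.39 (SE 0.18, adjusted p = 2.98e-06). The serpin SERPINB4 rose (adjusted p = 1.74e-05), but 2 of its 3 control arrays lay under the filter level, so the size of its difference is uncertain: 2.45 (SE 0.24) as fitted, 1.59 with the larger offset and 2.89 with the smaller one. The elastase inhibitor PI3 rose by 1.29 (SE 0.10) and the collagenase MMP1 by 0.66 (SE 0.05).

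The 3 lower genes of that list were HBEGF, KRT1 and KRT10. HBEGF, a ligand of the EGF receptor, fell by 0.66 (SE 0.07, adjusted p = 2.11e-05), and KRT10, a keratin of differentiating skin, by 0.35 (SE 0.06), both calls ending with the mean of all probe sets. KRT1, the partner of KRT10, was lower (6.52 with the miR-10b decoy and 29.8 with the control decoy, adjusted p = 0.0251). All 3 of its miR-10b decoy arrays lay under the filter level, and its control mean was 1.91 times that level. The KRT1 log2 difference lay between -2.13 and -0.61 over the alternatives, so its size is uncertain. Its call ended without miR-10b decoy replicate 1 or 3 or control replicate 1 or 3 (adjusted p from 0.0646 to 0.11). Of the keratinocyte markers whose summed level is given above, KRT1 was thus lower. Involucrin (IVL), a protein of the cornified envelope, was called higher, with 29.4 in miR-10b decoy cells and 12.5 in controls. However, 2 of the 3 IVL control arrays lay under the filter level, so the size of its difference is uncertain. The calls of IVL and of the glioma marker NES were not checked in the alternatives. The part of KRT1 and IVL in the result was not tested.

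**Figure D2:**
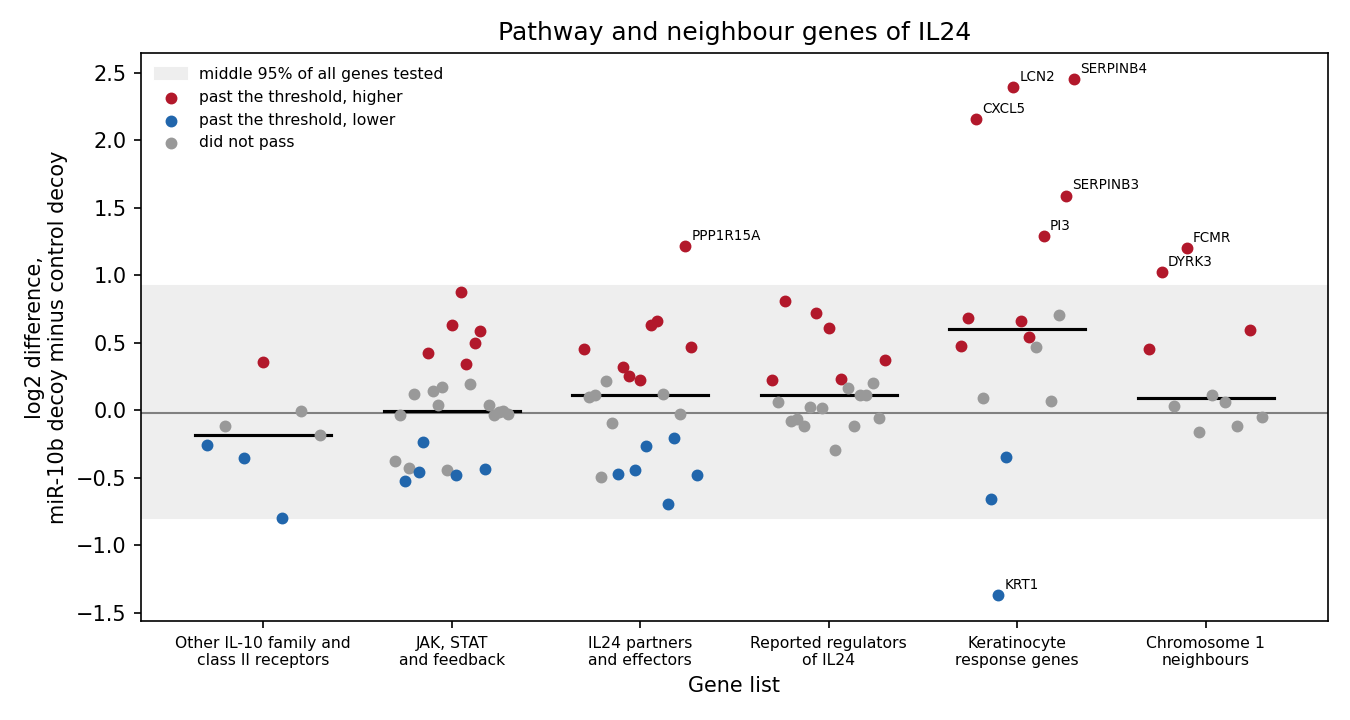
Log2 difference, miR-10b decoy minus control decoy, of every tested gene in 6 lists related to IL24. Red points passed the threshold upward, blue downward and grey did not pass, black bars are list medians, the grey line is the median of all genes and the band holds the middle 95% of them. The keratinocyte response genes have the highest list median, 0.60, with SERPINB4, LCN2 and CXCL5 at the top. The lists were chosen with earlier results of these data known, so their medians are a description.

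On chromosome 1, differences varied from gene to gene around IL24. Of 15 neighbouring genes, all with a probe set, 10 were tested, 4 were higher, 0 lower and 6 did not pass (median 0.09), beside 16.6% higher and 17.3% lower over all genes. FCMR, the Fc receptor for immunoglobulin M and the next listed gene after IL24, gave 56.4, 50.1 and 74.9 with the miR-10b decoy, against 11.8, 36.8 and 33.2 with the control decoy. The groups did not overlap, and FCMR rose by 1.20 (SE 0.30, adjusted p = 0.00955), with its other probe set at 1.77. The call ended without miR-10b decoy replicate 3 (adjusted p = 0.051).

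DYRK3, a protein kinase located 5 listed genes before IL24, gave 373, 561 and 500 with the miR-10b decoy, against 219, 233 and 278 with the control decoy, and rose by 1.02 (SE 0.12, adjusted p = 6.80e-05). Its second probe set lay under the filter level, and the mean of both did not pass (adjusted p = 0.255). The complement regulator CD55 rose by 0.45 (SE 0.08) and the RAS effector RASSF5 by 0.59 (SE 0.17, adjusted p = 0.0203). The deposited RASSF5 signals of the groups overlapped. RASSF5 did not pass as deposited, without the filter, without the intensity trend or when its probe sets were averaged (0.18, adjusted p = 0.418). Leaving out miR-10b decoy replicate 1 or 2 or control replicate 1 ended the call as well, and in these 3 fits the adjusted p lay between 0.0608 and 0.0875. Other neighbours differed less on the probe set that stands for each gene. MAPKAPK2, a kinase of the p38 pathway, had 0.12 (SE 0.07), the translation factor EIF2D 0.029 (SE 0.075), the immunoglobulin receptor PIGR -0.12 (SE 0.17), PFKFB2, a regulator of glycolysis, 0.061 (SE 0.11), the deubiquitinase YOD1 -0.048 (SE 0.079) and the kinase IKBKE -0.16 (SE 0.11), and none of these 6 passed. The PFKFB2 value hides a spread: its 3 probe sets above the filter level ran from -0.67 to 0.95, 1 of them with the opposite sign. IL10, FCAMR, C1orf116, C4BPB and C4BPA lay under the filter level.

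**Figure D3:**
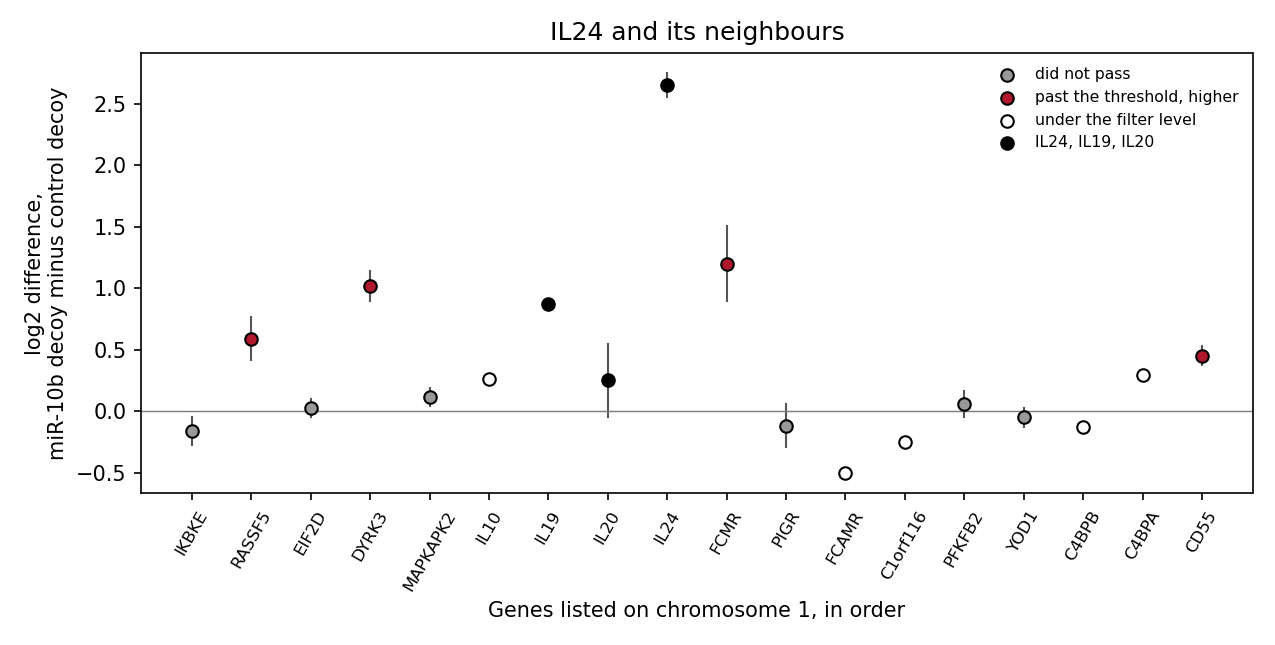
Log2 difference, miR-10b decoy minus control decoy, of IL24, IL19, IL20 and 15 neighbours in their order on chromosome 1 (spacing not to scale). Vertical lines are standard errors, given for genes in the fit, and open points are neighbours under the filter level (IL19, black, also lay under it). IL24 lies at 2.65, its next neighbours IL20 and FCMR at 0.25 and 1.20.

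The genes whose values over the 6 arrays were closest to those of IL24 were found by the root mean square difference of log2 values, each gene centred on its own mean. IL36RN, the interleukin-36 receptor antagonist, was the closest at 0.07, where the median gene lay at 1.35. It gave a mean of 1241 ± 128 with the miR-10b decoy and 210 ± 25.5 with the control decoy (SD, n = 3 each). ATP13A4-AS1, an antisense transcript, had 0.17, but 2 of its 3 control arrays lay under the filter level and its log2 difference moved between 1.59 and 2.98 with the offset, so its place is uncertain. Then came the heat shock gene HSPA6 and LCN2, both at 0.20. Next came PAX8-AS1, another antisense transcript, at 0.21, with 1 of its 3 probe sets of opposite sign. SERPINB4 followed at 0.25, with 2 of its 3 control arrays under the filter level. The trypsin inhibitor SPINK1 at 0.26, the growth factor FGF2 at 0.28, ZCCHC2 at 0.28 and the ATP receptor P2RX7 at 0.28 completed the 10. Other probe sets gave smaller log2 differences for ZCCHC2 (down to 1.14) and P2RX7 (0.99), so their places rest on the brightest probe set. The log2 differences of the 10 genes ran from 2.11 to 2.98, and 2 of them, LCN2 and SERPINB4, belong to the keratinocyte list. Since these genes were picked for resembling IL24, their differences are a description.

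**Figure D4:**
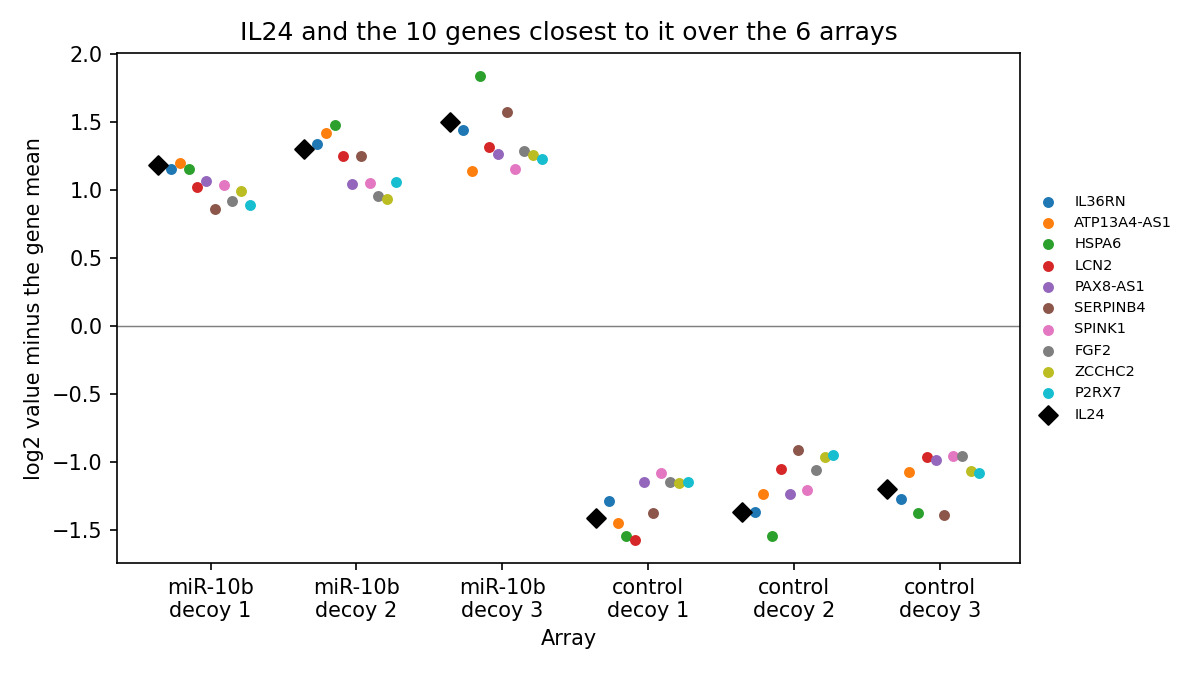
Quantile-normalized log2 values on each array, minus the gene's mean over the 6 arrays, of IL24 (black diamonds) and the 10 genes closest to it (coloured points, offset sideways for legibility). The 3 miR-10b decoy arrays are on the left and the 3 control decoy arrays on the right. IL24 and all 10 genes lie above 0 with the miR-10b decoy and below 0 with the control decoy.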

How the data were processed

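Total RNA from the 6 samples was labelled with biotin from 0.25 ug, per the labels' protocols, and hybridised to a 1-colour array with 54675 probe sets. The deposited values are linear signal intensities, made with MAS5 per the submitters' processing notes; neither the version nor the scaling target is stated there, and detection calls were not used here. No depth applies to arrays, and their number limits the precision. Only probe sets with 1 gene symbol in the platform annotation were named (41097, against 1801 with several and 11777 with none), and 62 control probe sets were left out. RefSeq (GRCh38.p14) matched 41037 of the 41091 probe sets used.

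Signals were turned into log2(signal + 7) and quantile-normalized, because control replicate 3 was brighter than the other arrays. A fold change on this scale understates the change of dim genes. Each of 19775 genes was represented by its brightest probe set on average. A filter at percentile 30 of the mean signal (15.6) kept 13842 genes. These were tested, miR-10b decoy against control decoy, in limma (3.58.1, under R 4.3.3) by lmFit followed by a two-sided eBayes test with trend, Benjamini-Hochberg adjustment over all genes tested and a threshold of 0.05. The variance prior had 7.67 degrees of freedom against 4 residual. The comparison was also run on simulated data with independent noise and far fewer changed genes, as a check of the procedure only. That run cannot show how the scaling of these arrays affects the calls. The members and all gene lists were chosen with earlier results of these data known. Named were the members, up to 5 genes of each list with the smallest p, every measured gene of the receptor family and neighbour lists, and the 10 genes closest to IL24. Other genes behind a small count, the keratinocyte list genes without a call, and JAK1, TYK2, ZFP36L2, JUNB and ELAVL1, were named after their values were seen. The chromosome 1 list shares IL10 and MAPKAPK2 with other lists. Alternatives were 2 other scalings, 2 offsets, 2 filters, the mean of all probe sets, a fit that ignored intensity, a block on replicate number and each array left out in turn.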

Additional observations from a re-analysis of the deposited data

How the results depend on the processing

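The IL24 difference was positive in all 15 alternatives, from 2.49 with an offset of 32 to 2.73, and lay between 2.57 and 2.73 when 1 array was left out. Counts of genes called moved more. With the signals as deposited, 1094 genes were higher in all, and of the lists 0 receptor family genes, 4 effectors and 3 regulators were higher, with 1 regulator (JUNB) lower. With the mean of all probe sets, 1462 genes were higher and 1575 lower, 0 family and 2 neighbour genes were higher, and 1 JAK and STAT gene, 1 regulator (ELAVL1) and 1 keratinocyte gene were lower. Leaving out 1 array gave 1872 to 2147 genes higher and 1833 to 2147 lower, 3 to 4 JAK and STAT genes lower and 0 to 1 regulators lower. With the replicate block 2220 genes were higher and 2336 lower, the IL24 difference stayed at 2.65, and no list count moved by over 1.5 times. Deviations of same-numbered samples from their group means correlated with r = 0.0285, -0.032 and -0.015. The labels state no pairing, and with 3 arrays per group these values cannot decide whether same-numbered samples shared a culture or a batch. Of 59 genes named or counted in the lists as called, 29 kept their call in every alternative that tested them and 30 lost it in at least 1.

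Sign changes beyond the call of XBP1 (0.025 with the mean of all probe sets) concerned genes that did not pass. After centring, IFNL2 had 0.0084, JAK1 0.0051, TYK2 0.077 and YOD1 0.033. With the mean of all probe sets, IFNAR1 had 0.037, YOD1 0.14 and PFKFB2 -0.11, and as deposited EIF2D had -0.049 and PFKFB2 -0.034. Leaving out 1 array gave -0.12 to 0.12 for IFNL2, -0.080 to 0.0064 for JAK1, -0.10 to 0.050 for TYK2, -0.039 to 0.065 for EIF2D and -0.024 to 0.12 for PFKFB2. The cause of these moves was not tested. Signal limits the dim members: IL19 and IL20RA lay under the filter level, and IL20 and IL22RA1 a little above it.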
